A study of Mus musculus with 28 samples.

Results

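Nestin, the platelet-derived growth factor (PDGF) system and the genes that mark pericytes were followed in whole lungs of newborn mice that lack HRas, NRas or both. The 10 genes are Nes, Pdgfa, Pdgfb, Pdgfra, Pdgfrb, Cspg4, Rgs5, Notch3, Anpep and Des, out of 22180 genes measured. They were chosen by symbol, each through its brightest row of the deposited table, and with results of these data known: Nes and Pdgfb had been picked because they were among the most lowered genes of untreated double knockout lungs. Every difference that uses the untreated double knockout arrays is therefore given as a description with no test, and tests compare only the other groups. The spread between animals in those tests was estimated over all 28 arrays, the untreated double knockout ones included.

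Pericytes are contractile support cells that wrap capillaries, and endothelial cells recruit them by secreting PDGF-B, which acts on the receptor PDGFR-beta on the pericyte surface. In the lung a second branch runs through PDGF-A, made largely by epithelium, and PDGFR-alpha on fibroblasts, and it is needed for the myofibroblasts that build alveolar walls. PDGF receptors signal through Ras, among other routes. Nestin is an intermediate filament protein of progenitor cells, of growing vessels and of young muscle.

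Lungs were taken on postnatal day 0, and each of the 28 arrays held total RNA of 1 animal. The untreated groups were Control (n = 3), HRas-KO (n = 3), NRas-KO (n = 3) and DKO, which lacks both genes (n = 5). The other arm held Control+NAC (n = 4), HRas-KO+NAC (n = 3), NRas-KO+NAC (n = 3) and DKO+NAC (n = 4), whose mothers received 0.5% N-acetyl cysteine (NAC, an antioxidant and glutathione precursor) in pregnancy. Strain, and how the alleles were made, are not given in the sources used here. All groups share whole lung as the tissue, so a lower level can mean fewer cells of a type or less RNA per cell, and these cannot be told apart. Levels are log2 values from the robust multi-array average (RMA), a difference is first group minus second on that log2 scale, SD is over animals, and levels of different genes cannot be set against each other.

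Some labels and arrays stand apart. The label that names the NAC treatment lists only samples 15, 16 and 17, while the source labels give NAC to 14 arrays and were followed. Titles of the 3 HRas-KO+NAC arrays do not mention NAC. The start of the animal code in each title may mark a litter, which the labels do not say. No code start occurred in both arms, and none of the untreated DKO arrays shared one with another group. NAC and collection therefore cannot be told apart, and neither can the untreated DKO genotype and code start. Nras read 7.40 to 7.74 in DKO and 8.07 to 8.35 in Control, and DKO+NAC replicate 4 read 8.08 against its label, above the other DKO+NAC arrays (7.56 to 7.74). Hras was not analysed here.

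All 10 genes lay above the array median on all 28 arrays. Of 35 further pericyte genes, 3 (Ebf2, Foxd1 and Tbx18) lay below the array median on every array, and none of 21 blood endothelial genes did. The set is not specific to pericytes: Pdgfra also marks fibroblasts, Des marks muscle, and Pdgfa and Pdgfb are made by other cells.

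Promoter sequence was taken from RefSeq on build GRCm38.p6, as the 250 bases before the annotated start, for 8 of the 10 genes. Windows of Pdgfb and Pdgfrb were not used here. The windows shown are those of genes the results turn on: Nes is the most lowered gene of the set in untreated DKO. Beside it stand Cspg4, Notch3 and Des, which were lower with NAC in each genotype tested, and Rgs5, which stood higher in untreated DKO. Each reads 5' to 3' on the gene's strand, and capitals mark GC boxes (GGGCGG or its complement CCGCCC, the letters bound by Sp1-family factors). The windows are chr3:87970843-87971092 on the + strand for Nes, chr9:56864854-56865103 on the + strand for Cspg4, chr17:32166891-32167140 on the - strand for Notch3, chr1:75360042-75360291 on the + strand for Des and chr1:169655251-169655500 on the + strand for Rgs5.
Nes: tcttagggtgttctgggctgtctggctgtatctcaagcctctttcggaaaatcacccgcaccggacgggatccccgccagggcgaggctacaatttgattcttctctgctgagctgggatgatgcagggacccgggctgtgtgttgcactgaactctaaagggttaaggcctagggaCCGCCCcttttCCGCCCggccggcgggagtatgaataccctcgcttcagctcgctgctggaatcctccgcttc
Cspg4: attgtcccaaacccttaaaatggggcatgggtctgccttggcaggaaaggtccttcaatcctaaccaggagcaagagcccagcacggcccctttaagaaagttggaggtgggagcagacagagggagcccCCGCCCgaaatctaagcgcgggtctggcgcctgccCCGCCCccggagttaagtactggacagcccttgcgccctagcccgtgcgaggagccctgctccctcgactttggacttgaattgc
Notch3: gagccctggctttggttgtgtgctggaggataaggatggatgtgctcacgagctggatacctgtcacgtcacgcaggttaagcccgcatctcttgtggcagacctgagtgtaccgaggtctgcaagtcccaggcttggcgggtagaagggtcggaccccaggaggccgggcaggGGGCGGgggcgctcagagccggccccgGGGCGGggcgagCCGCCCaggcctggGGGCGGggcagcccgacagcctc
Des: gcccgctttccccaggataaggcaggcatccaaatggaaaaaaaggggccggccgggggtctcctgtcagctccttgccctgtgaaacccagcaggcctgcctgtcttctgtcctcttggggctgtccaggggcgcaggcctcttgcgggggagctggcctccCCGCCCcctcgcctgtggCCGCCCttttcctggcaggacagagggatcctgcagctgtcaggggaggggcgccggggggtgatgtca
Rgs5: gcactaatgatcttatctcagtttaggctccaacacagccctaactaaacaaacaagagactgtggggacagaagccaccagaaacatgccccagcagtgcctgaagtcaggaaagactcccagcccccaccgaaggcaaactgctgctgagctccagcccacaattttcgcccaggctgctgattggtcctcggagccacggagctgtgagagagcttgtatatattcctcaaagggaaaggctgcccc

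GC boxes were counted on both strands. Nes, Cspg4 and Des held 2 each, Notch3 held 4, Anpep held 3, and the windows of the 2 annotated Pdgfa starts held 1 and 2. Rgs5 and Pdgfra held none. A GC box occurs in 32.7% of the 32851 mouse promoter windows of the same length, so this count describes common letters. The Nes pair lay at positions -73 and -62 from the start. The 8 genes held no match to an ETS core (CCGGAA, in 12% of all windows), an AP-1 site (TGANTCA, 6.75%), a TATA box (TATAAA, 12.4%), an RBPJ site (GTGGGAA, 5.42%) or a CArG box (1.47%). The absence of a match says only that these letters are not in these windows.

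Nes and Pdgfb were low in untreated DKO lungs and Rgs5 was high, while both PDGF receptors and Pdgfa stayed close to Control. With NAC, the DKO levels of all 3 genes overlapped those of every other NAC group. These values are shown in the plot of each gene by group.

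**Figure D1:**
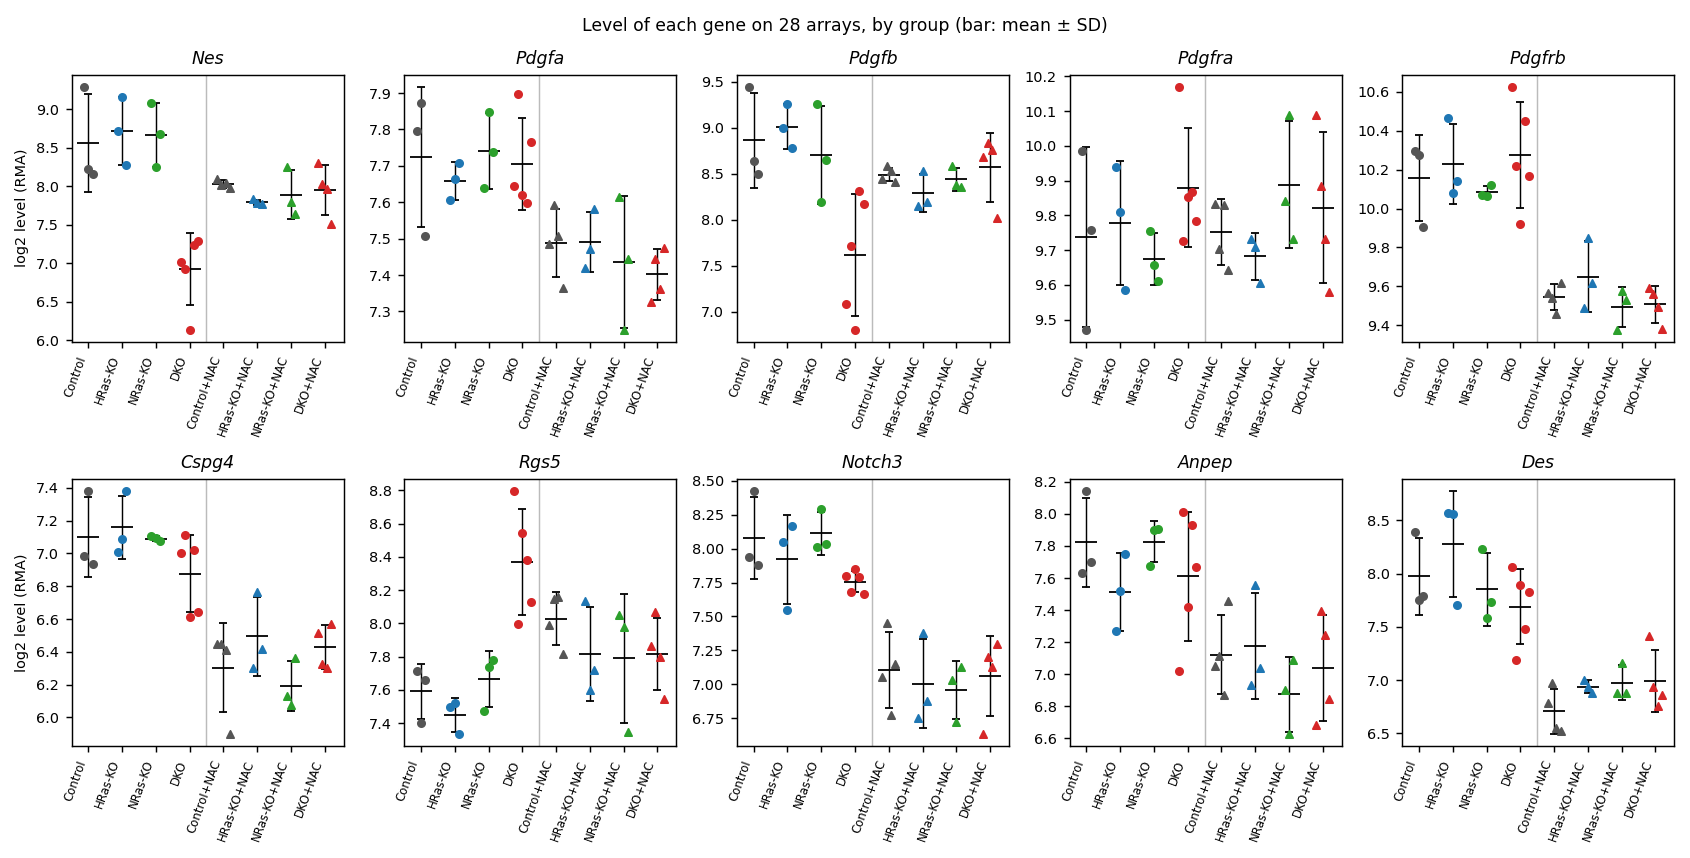
Each panel shows 1 gene, with its log2 RMA level on the y axis and the 8 groups on the x axis. Points are arrays (circles untreated, triangles NAC, colour by genotype) and bars are the group mean ± SD. The 5 untreated DKO arrays lie below all others for Nes (6.14 to 7.29), and the NAC arrays lie below the untreated ones for Pdgfrb, Notch3 and Des in every genotype apart from 1 overlapping pair of Des values in DKO.

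Pdgfb encodes the ligand that endothelial cells use to hold pericytes. Its level was 9.44, 8.64 and 8.50 in Control, 8.99, 9.26 and 8.78 in HRas-KO and 9.26, 8.20 and 8.65 in NRas-KO. In DKO it was 7.08, 7.71, 6.81, 8.31 and 8.17. The DKO arrays lay below all Control and HRas-KO arrays, but DKO replicate 4 lay above NRas-KO replicate 2. The mean was 7.62 ± 0.66 (SD, n = 5) in DKO against 8.86 ± 0.51 (n = 3) in Control, a difference of -1.24 ± 0.27 (SE), 2.37-fold lower and rank 17 from the lowest of all genes. Against HRas-KO the difference was -1.39 and against NRas-KO -1.08.

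The other ligand, Pdgfa, averaged 7.70 ± 0.13 over the 5 DKO arrays against 7.73 ± 0.19 over 3 Control arrays, a difference of -0.02 ± 0.10 (SE). Its arrays ranged from 7.51 to 7.90 over all untreated groups. The low level of Pdgfb in DKO was thus not shared by Pdgfa on these arrays.

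The receptor of PDGF-B, Pdgfrb, was 10.63, 10.22, 9.92, 10.45 and 10.17 in DKO and 10.29, 10.27 and 9.90 in Control. The groups overlapped, with a difference of 0.12 ± 0.13 (SE). Pdgfra, the receptor of lung fibroblasts, was 9.88 ± 0.17 (n = 5) in DKO and 9.74 ± 0.26 (n = 3) in Control, a difference of 0.14 ± 0.12 (SE). Neither receptor stood apart in DKO by more than the spread between animals.

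Nes encodes nestin. Its level was 9.30, 8.23 and 8.17 in Control, 8.72, 9.17 and 8.28 in HRas-KO and 9.08, 8.25 and 8.69 in NRas-KO. In DKO it was 7.02, 6.93, 6.14, 7.25 and 7.29. The highest DKO array lay below the lowest array of any other untreated group. The DKO mean of 6.92 ± 0.46 (SD, n = 5) against 8.56 ± 0.63 (n = 3) in Control gave -1.64 ± 0.25 (SE), 3.11-fold lower and rank 5 from the lowest of 22180 genes. The difference was -1.80 against HRas-KO and -1.75 against NRas-KO. In order of means, HRas-KO (8.72), NRas-KO (8.67) and Control (8.56) did not differ beyond their spread, the NAC groups followed between 7.79 and 8.03, and untreated DKO came last.

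Desmin (Des), the muscle intermediate filament that pericytes also carry, was 8.06, 7.19, 7.89, 7.48 and 7.83 in DKO and 8.39, 7.75 and 7.79 in Control. These overlapped, with a difference of -0.29 ± 0.21 (SE). The 2 filament genes therefore separated in DKO, with Nes wholly below Control and Des overlapping it.

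Rgs5 encodes a regulator of G-protein signalling that marks pericytes. It was 8.80, 8.0, 8.54, 8.38 and 8.13 in DKO, 7.71, 7.40 and 7.66 in Control, 7.50, 7.52 and 7.33 in HRas-KO and 7.47, 7.74 and 7.78 in NRas-KO. Every DKO array lay above every other untreated array. The difference from Control was 0.78 ± 0.17 (SE), 1.71-fold higher and rank 139 from the highest of all genes. Rgs5 has a second, dim row in the table, which averaged 4.44 ± 0.37 over the DKO arrays (SD, n = 5) and 4.43 ± 0.25 over the Control arrays (n = 3), and the mean of both rows gave a difference of 0.39.

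The remaining pericyte genes differed little between untreated DKO and Control. Cspg4, the NG2 proteoglycan of the pericyte surface, differed by -0.22 ± 0.14 (SE) and Anpep, the surface aminopeptidase CD13, by -0.21 ± 0.20 (SE), both with overlapping groups. Notch3, the Notch receptor of mural cells, was 7.67 to 7.85 over the 5 DKO arrays and 7.94, 8.42 and 7.88 in Control, so that all DKO arrays lay just below Control, by -0.32 ± 0.17 (SE). DKO overlapped HRas-KO, which read 8.05, 7.55 and 8.16. The median difference of the 10 genes from Control was -0.22 and of all genes 0.02, with 7 of 10 below 0.

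Related genes did not show the low level of Nes and Pdgfb as lists in untreated DKO. The median difference from Control was 0.00 over 23 further PDGF genes, -0.05 over 35 further pericyte genes, 0.04 over 19 Notch genes and -0.03 over 15 intermediate filament genes and nestin partners. For 21 blood endothelial genes it was -0.17, with 16 below 0, and for 12 tip cell genes -0.05, where single genes ran from -1.68 to 0.26. For 5 erythroid genes it was 0.39 with 0 below 0, and their mean level was 5.90 to 6.52 over the 5 DKO arrays against 5.37 to 5.84 over the other untreated arrays. The mean level of the endothelial list was 8.99 to 9.24 over the DKO arrays and 9.19 to 9.44 over the Control arrays. Small RNA rows, which can follow RNA handling, also moved with DKO: all 5 DKO arrays stood 0.19 to 0.84 above the mean of each row, and the other untreated arrays between -0.58 and 0.08. The part of endothelial markers, erythroid markers or small RNA level in the low Nes and Pdgfb was not tested.

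Levels within DKO were uneven. DKO replicates 1 and 3 had the lowest Pdgfb (7.08 and 6.81) and the highest Rgs5 (8.80 and 8.54). The same arrays stood highest for small RNA rows, at 0.41 and 0.84 above the mean of each row against 0.19 to 0.23 on the other DKO arrays. They were the lowest DKO arrays for the tip cell list (7.18 and 7.26 against 7.60 to 7.71), the myeloid list (7.23 and 7.07 against 7.45 to 7.67) and the fibroblast list (8.42 and 8.40 against 8.55 to 8.58). Skeletal muscle means (6.63 and 5.92 against 5.51, 5.44 and 6.26) did not split them from the rest. Xist, the RNA of the inactive X chromosome in females, was 10.36 and 9.92 on them and 3.95 to 4.33 on the other DKO arrays. The part of these lists, small RNA level or sex in the values was not tested.

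Among untreated arrays other than DKO, Nes, Pdgfb and Des moved with the code start. Nes was 9.08 to 9.30 on the 3 C118 arrays, 8.72 on the C117 array and 8.17 to 8.69 on the 5 H058 arrays. Pdgfb was 9.26 to 9.44, 8.99 and 8.20 to 8.78 in the same order, and Des was 8.23 to 8.56, 8.57 and 7.58 to 7.79. Each code start except C117 held arrays of more than 1 genotype, and the C118 arrays were 1 each of Control, HRas-KO and NRas-KO. Without Control replicate 1, the C118 array, the DKO difference was -1.27 for Nes and -0.95 for Pdgfb.

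**Figure D2:**
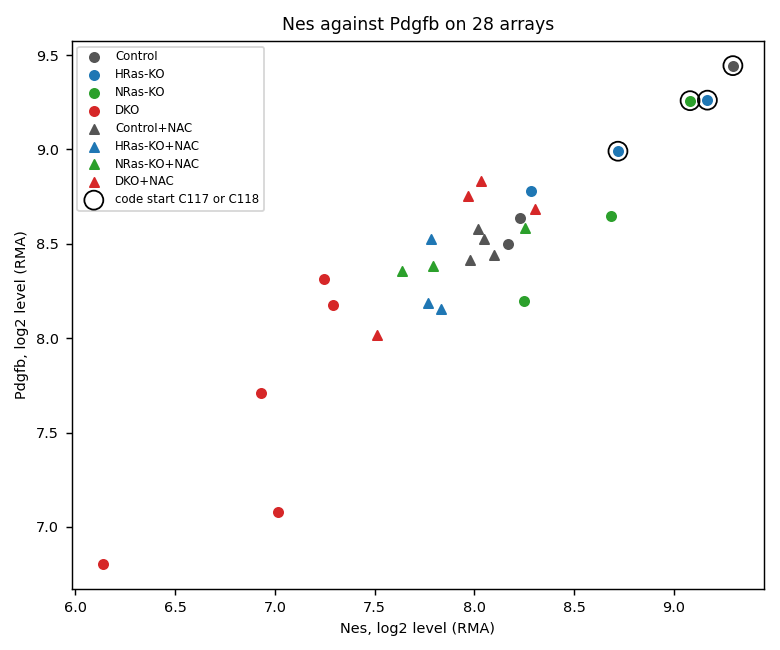
The log2 RMA level of Pdgfb (y axis) is plotted against that of Nes (x axis) for 28 arrays, with circles for untreated and triangles for NAC arrays, colour by genotype, and rings around arrays of code start C117 or C118. The ringed arrays hold the 4 highest levels of both genes, and the 5 untreated DKO arrays hold the 5 lowest Nes levels.

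Nes and Pdgfb ranked the arrays alike. Over 28 arrays their Pearson r was 0.91, which includes the difference that chose them. Over the 23 arrays without untreated DKO it was 0.88, over the 9 other untreated arrays 0.90 and over the 14 NAC arrays 0.71. Arrays share litters if code starts mark them, so these are descriptions and carry no p. Among 18808 genes compared over 28 arrays, those most like Nes were Fblim1 (0.92), Pdgfb (0.91), Paf1 (0.89), Vgll3 (0.88) and Nexn (0.87). Those most like Pdgfb were Fblim1 (0.92), Nes (0.91), Fzd7 (0.88), Prnd (0.86) and Kdr (0.86), the VEGF receptor of endothelium. Both rankings include the untreated DKO arrays, whose low Nes and Pdgfb chose these genes, and were not repeated without them.

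Pdgfrb kept other company. Its most similar genes were Dvl3 (0.95), Pigt (0.94), Tsc2 (0.93), Casz1 (0.93) and Scamp3 (0.93). Its r was 0.82 with Cspg4, 0.80 with Notch3 and 0.79 with Des, against -0.05 with its ligand Pdgfb and 0.04 with Nes. Pdgfra (0.15) and Rgs5 (0.06) went with neither, and Rgs5 had r of -0.61 with Nes. The difference between arms enters each r.

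No gene of the set passed the test for the loss of 1 Ras gene. HRas-KO against Control called 0 of 10 genes and NRas-KO against Control 0 of 10 at a limma adjusted p under 0.05, where 0% of all genes were called in each, and these comparisons share their Control arrays with the contrast that chose the genes. HRas-KO against NRas-KO also called 0 of 10 and 0% of all genes. At an unadjusted p under 0.05 the counts were 190, 231 and 379 genes in that order, none of them a member. The difference nearest to the threshold was Des between HRas-KO and NRas-KO, 0.42 higher in HRas-KO, with a limma adjusted p of 1.00. Nes differed from Control by 0.16 in HRas-KO and 0.11 in NRas-KO, and a p that misses the threshold does not show equal levels.

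In the NAC arm the DKO difference of Nes and Pdgfb was not seen. Nes read 8.30, 8.03, 7.97 and 7.51 in DKO+NAC and 8.10, 8.02, 8.05 and 7.98 in Control+NAC. DKO+NAC spread on both sides of Control+NAC. The difference was -0.08 ± 0.24 (SE), with a 95% interval of -0.58 to 0.42 (limma adjusted p = 0.94). Pdgfb read 8.68, 8.83, 8.75 and 8.02 in DKO+NAC and 8.44, 8.58, 8.52 and 8.41 in Control+NAC, a difference of 0.08 ± 0.27 (SE) with an interval of -0.47 to 0.63 (limma adjusted p = 0.95). The lowest array of both genes was DKO+NAC replicate 4, whose Nras went against its label. Without it the differences were 0.07 for Nes and 0.26 for Pdgfb.

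Rgs5 read 7.86, 8.07, 7.80 and 7.54 in DKO+NAC and 7.99, 8.15, 8.16 and 7.82 in Control+NAC, a difference of -0.21 ± 0.16 (SE). The groups overlapped, and the high Rgs5 of untreated DKO had no counterpart here. The 10 differences ran from -0.21 for Rgs5 to 0.29 for Des, and 0 of 10 genes were called, as were 0% of all genes. At an unadjusted p under 0.05 limma gave 2116 genes, none of them a member. Within code start T445 (1 DKO+NAC array, 3 Control+NAC) Nes differed by -0.09 and Pdgfb by 0.24. Within T453 (1 against 1) they differed by -0.47 and -0.40, through the same replicate 4.

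HRas-KO+NAC against Control+NAC, NRas-KO+NAC against Control+NAC, DKO+NAC against HRas-KO+NAC and DKO+NAC against NRas-KO+NAC each called 0 of 10 genes and 0% of all genes. Unadjusted p-values under 0.05 came to 1408, 2321, 1482 and 826 genes in that order, none of them a member. Differences of the 10 genes lay between -0.25 and 0.28 over these comparisons, which share arrays. None of the 10 genes was called between the NAC genotypes. Nes levels of HRas-KO+NAC (7.77 to 7.83) did lie below all those of Control+NAC (7.98 to 8.10), by -0.24 (limma adjusted p = 0.96). Xist was 10.84 to 11.07 on all 4 DKO+NAC arrays and 4.38 to 4.6 on all 3 HRas-KO+NAC arrays, so that sex and genotype cannot be told apart between these groups. With Xist as a covariate over all arrays, added after seeing the data, 0 of 10 genes were called there too.

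**Figure D3:**
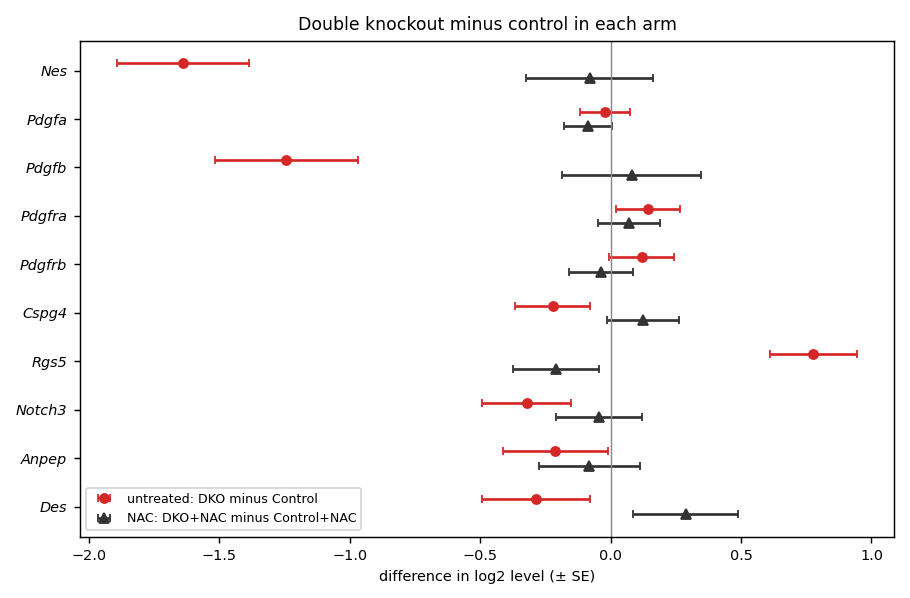
For each of the 10 genes the difference in log2 level between double knockout and control (x axis, ± SE) is shown in the untreated arm (circles) and in the NAC arm (triangles). Nes (-1.64), Pdgfb (-1.24) and Rgs5 (0.78) stand apart from 0 in the untreated arm, and all 10 NAC values lie between -0.21 and 0.29.

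NAC arrays had lower levels of several of the 10 genes than untreated arrays. Pdgfrb, Cspg4, Notch3 and Des fell in Control, HRas-KO and NRas-KO alike, Anpep fell in Control and NRas-KO, and Nes fell in HRas-KO. The pericyte marker Rgs5 was not among them and differed by 0.44, 0.37 and 0.13 in Control, HRas-KO and NRas-KO. In each genotype 5 of 10 genes were called lower and 0 higher by limma. Over all genes 5.68% were called lower and 7.86% higher in Control, 5.10% and 6.73% in HRas-KO, and 3.56% and 2.86% in NRas-KO. The median difference of the 10 genes was -0.57, -0.62 and -0.68 in that order, against 0.02, 0.02 and 0.03 over all genes. The Control comparison shares its untreated arrays with the contrast that chose the genes, and the other comparisons share no array with it or with each other. They do share code starts. All 3 HRas-KO+NAC arrays have T453, which also occurs in Control+NAC and NRas-KO+NAC, and 3 of 4 Control+NAC arrays have T445. C118 and H058 each occur in Control, HRas-KO and NRas-KO. If code starts mark litters, the comparisons are not independent, and the HRas-KO+NAC arrays come from 1 litter.

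Des had the largest difference of the set in Control and HRas-KO, though in NRas-KO Notch3, Anpep and Cspg4 differed more. It read 6.97 or less on all Control+NAC arrays against 7.75 or more in Control, a difference of -1.27 ± 0.22 (SE, limma adjusted p = 0.00037), 2.41-fold lower. In HRas-KO the difference was -1.34 ± 0.23 (adjusted p = 0.00048) and in NRas-KO -0.88 ± 0.23 (adjusted p = 0.022). No NAC array overlapped the untreated arrays of its genotype in these 3 comparisons. Without NRas-KO replicate 1, the C118 array, the NRas-KO difference was -0.69 and missed the threshold (adjusted p = 0.14), as it did without NRas-KO+NAC replicate 1 (0.073) or 3 (0.060) and without code starts C117 and C118 (0.072). Leaving out code starts C117 and C118 leaves 1 untreated HRas-KO array and 2 untreated NRas-KO arrays. The HRas-KO difference was then -0.76, a size given without a call because 1 array remained. Untreated Des read 8.23 to 8.57 on C117 and C118 arrays and 7.58 to 7.79 on H058 arrays.

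Notch3 read 7.06, 7.45, 6.77 and 7.15 in Control+NAC against 7.94, 8.42 and 7.88 in Control, a difference of -0.97 ± 0.18 (SE, limma adjusted p = 0.00072). It was -0.92 ± 0.19 in HRas-KO (adjusted p = 0.0023) and -1.16 ± 0.19 in NRas-KO (adjusted p = 0.00070). NAC and untreated arrays did not overlap in any of them. Notch3 was called in all 3 genotypes under every alternative that left more than 1 array in each group.

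Pdgfrb read 9.56, 9.54, 9.45 and 9.61 in Control+NAC, 9.49, 9.85 and 9.62 in HRas-KO+NAC and 9.38, 9.58 and 9.53 in NRas-KO+NAC. Untreated arrays of these genotypes read 9.90 or more, above every one of them. The differences were -0.61 ± 0.13 in Control, -0.58 ± 0.14 in HRas-KO and -0.59 ± 0.14 in NRas-KO (SE, limma adjusted p = 0.0025, 0.0075 and 0.011), about 1.5-fold in each. Without HRas-KO replicate 1, HRas-KO+NAC replicate 1 or NRas-KO+NAC replicate 1 the call in that genotype was lost, at adjusted p = 0.061, 0.056 and 0.053. Without code starts C117 and C118, which leaves 1 untreated HRas-KO array, the HRas-KO difference was -0.49.

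Cspg4 read 6.45, 6.45, 6.41 and 5.90 in Control+NAC against 6.98, 7.38 and 6.94 in Control. The difference was -0.80 ± 0.15 (SE, limma adjusted p = 0.00090), and it was -0.67 ± 0.16 in HRas-KO (adjusted p = 0.0074) and -0.90 ± 0.16 in NRas-KO (adjusted p = 0.0013). Groups did not overlap. Without HRas-KO replicate 3 or HRas-KO+NAC replicate 1 the HRas-KO call was lost narrowly, at 0.0502 and 0.057.

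Anpep fell by 0.70 in Control (SE 0.21, limma adjusted p = 0.026) and by 0.95 in NRas-KO (SE 0.22, adjusted p = 0.010), while in HRas-KO it differed by -0.34 ± 0.22 (adjusted p = 0.38). Its NAC difference was not shown to differ between genotypes: HRas-KO minus NRas-KO was 0.61 ± 0.32 (limma adjusted p = 0.95). In Control the call was lost without Control replicate 2 (-0.54, adjusted p = 0.18), Control+NAC replicate 1 (0.058) or Control+NAC replicate 3 (0.080), and in NRas-KO without NRas-KO+NAC replicate 2 (0.062). It was also lost in Control with the code start as a random block (limma adjusted p = 0.053), with small RNA rows as a covariate (0.058) and without code starts C117 and C118 (0.052).

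Nes read 7.83, 7.78 and 7.77 in HRas-KO+NAC against 8.72, 9.17 and 8.28 in HRas-KO, a difference of -0.93 ± 0.28 (SE, limma adjusted p = 0.031). It was -0.53 in Control (adjusted p = 0.20) and -0.78 in NRas-KO (adjusted p = 0.11). The HRas-KO call was weak. It was lost in 5 of 6 fits that left out 1 of its arrays, with differences of -1.15 to -0.71 over the 6. Without code starts C117 and C118, which leaves 1 untreated HRas-KO array, the difference was -0.49. The code start as a random block gave an adjusted p of 0.052 and small RNA rows as a covariate 0.053.

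The PDGF ligands and Pdgfra passed in no genotype. Pdgfb differed by -0.37, -0.72 and -0.26 in Control, HRas-KO and NRas-KO (limma adjusted p = 0.44, 0.13 and 0.71), Pdgfa by -0.24, -0.17 and -0.31 (0.12, 0.35 and 0.091) and Pdgfra by 0.01, -0.10 and 0.21. Rgs5 differed by 0.44, 0.37 and 0.13 (0.10, 0.23 and 0.78), the only gene of the set besides Pdgfra with any positive value. Tests of whether the NAC difference itself differs between pairs of these genotypes, added after seeing the data, called 0 of 10 genes and 0% of all genes in each of 3 pairs. At an unadjusted p under 0.05 they gave 1076, 456 and 966 genes, none of them a member.

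In DKO, described only, the NAC arrays had Nes higher by 1.03 and Pdgfb higher by 0.95, which is 2.04-fold and 1.94-fold. All DKO+NAC arrays lay above all DKO arrays for Nes, and 3 of 4 did for Pdgfb, with replicate 4 at 8.02 inside the DKO range. Rgs5 differed by -0.55, Pdgfrb by -0.77, Notch3 by -0.69, Des by -0.70, Anpep by -0.57, Cspg4 by -0.45, Pdgfa by -0.30 and Pdgfra by -0.06. For Pdgfrb, Notch3, Des and Cspg4 DKO thus had values on the same side as the other genotypes, and for Nes, Pdgfb and Rgs5 on the opposite side. That contrast was not tested, because the untreated DKO arrays chose the genes. Xist read 10.84 to 11.07 on the DKO+NAC arrays and 10.36, 3.95, 9.92, 4.33 and 4.06 on the untreated DKO arrays. The part of sex in these DKO differences was not tested.

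**Figure D4:**
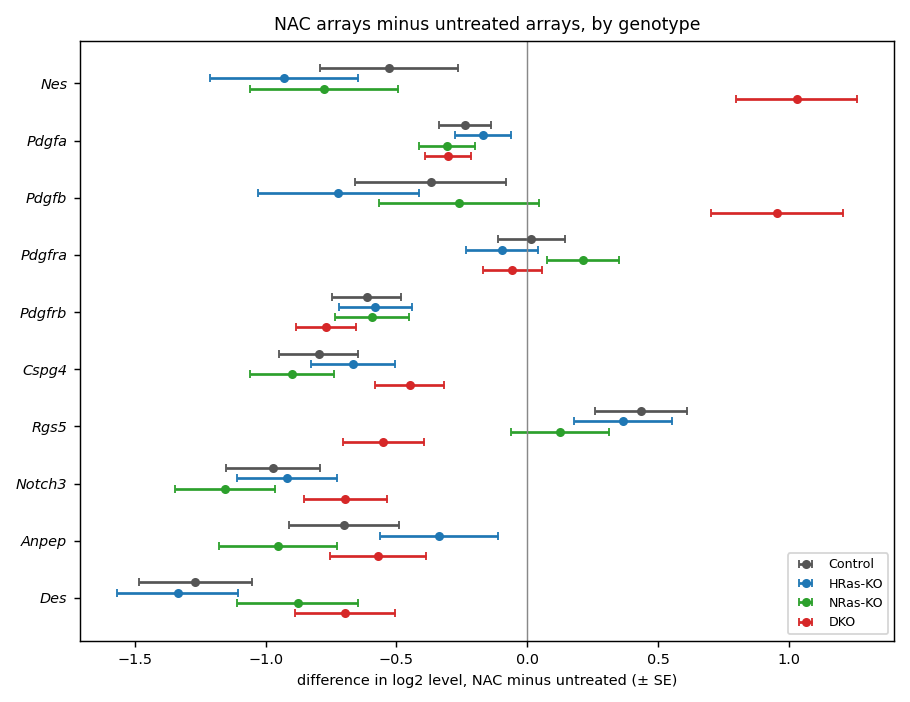
The difference in log2 level between NAC and untreated arrays (x axis, ± SE) is shown for each of the 10 genes in 4 genotypes, by colour. Pdgfrb, Cspg4, Notch3 and Des lie below 0 in all genotypes, and Nes and Pdgfb lie above 0 in DKO (1.03 and 0.95) and below 0 in the others.

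Other genes of the PDGF system moved in both directions with NAC. Of 23, 4 fell and 3 rose in Control, 4 fell and 3 rose in HRas-KO, and 3 fell and 2 rose in NRas-KO. Over all genes 5.68%, 5.10% and 3.56% were called lower and 7.86%, 6.73% and 2.86% higher. The 2 or 3 genes that rose are few beside that share. Lrp1, a co-receptor of PDGFR-beta, fell by 1.16, 1.10 and 1.20 (SE 0.15, 0.16 and 0.16, limma adjusted p = 3.4e-05, 8.4e-05 and 9.5e-05). Furin, a protease that processes PDGF precursors, fell by 0.82, 0.71 and 0.56 (adjusted p = 9.8e-05, 0.00083 and 0.010). Ptpn2, a tyrosine phosphatase, rose by 0.66 in Control and 0.72 in HRas-KO (adjusted p = 0.0037 and 0.0035). The list's median was 0.06, -0.09 and 0.06.

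Most other pericyte genes were not called. Of 35, 5 fell and 1 rose in Control, 3 fell and 1 rose in HRas-KO, and 1 fell and 0 rose in NRas-KO. The single genes that rose in Control and HRas-KO, and the 1 that fell in NRas-KO, are a share of the list below that over all genes. Tbx2, a T-box transcription factor of lung mesenchyme, fell by 0.61, 0.60 and 0.61 (limma adjusted p = 0.00040, 0.00089 and 0.0017). Angpt1, the pericyte ligand of the endothelial receptor Tie2, rose by 0.67 in Control and 0.81 in HRas-KO (adjusted p = 0.0047 and 0.0021). The list's median was -0.10, -0.06 and -0.10, nearer to 0 than the median of the 10 genes.

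Notch1 and Notch4 fell along with Notch3 in all 3 genotypes. Of 19 Notch genes 4 fell and 2 rose in Control, 4 and 2 in HRas-KO, and 5 and 1 in NRas-KO. Over all genes 5.68%, 5.10% and 3.56% were called lower and 7.86%, 6.73% and 2.86% higher. The 1 or 2 Notch genes that rose are few beside that share. Notch1 fell by 0.65, 0.70 and 0.78 (limma adjusted p = 0.0022, 0.0022 and 0.0017) and the endothelial Notch4 by 0.84, 0.81 and 0.53 (adjusted p = 0.00025, 0.00070 and 0.030). Adam10, the protease that cuts activated Notch receptors, rose by 0.51, 0.41 and 0.46 (adjusted p = 0.00089, 0.0092 and 0.0081). The list's median was -0.20, -0.27 and -0.10. Of 15 intermediate filament genes and partners, 1 fell in each genotype, a count near the share over all genes. It was the linker protein plectin (Plec), by 0.80, 1.05 and 0.58 (limma adjusted p = 0.00038, 8.1e-05 and 0.017). The list median was -0.03, -0.07 and -0.01.

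Some markers of neighbouring cells also passed the test with NAC, to be read against the shares of all genes given above (5.68%, 5.10% and 3.56% lower). Of 21 blood endothelial genes 5, 6 and 4 fell in Control, HRas-KO and NRas-KO and 0 rose, among them Eng, a TGF-beta co-receptor (-0.95 in Control and -1.13 in HRas-KO), and Robo4 (-0.68 in Control and -0.84 in NRas-KO). Of 17 smooth muscle genes 2 fell in each, including smoothelin (Smtn, -0.65, -0.79 and -0.77). Of 20 skeletal muscle genes 1 fell in each (Actn2, -0.99, -0.95 and -1.24), and of 13 heart muscle genes 3, 3 and 1 fell. Of 19 fibroblast genes 1, 1 and 3 fell, led by Col1a1 (-1.01, -1.06 and -1.26), and of 12 tip cell genes 1, 0 and 2. Where 1 gene or none of a list of this size fell, as for skeletal muscle, the count is near the share over all genes. Medians in the same order were -0.27, -0.25 and -0.25 for endothelium, -0.35, -0.33 and -0.19 for smooth muscle and -0.35, -0.12 and -0.51 for skeletal muscle. Of 12 lung epithelial genes 2, 3 and 1 fell and 1, 1 and 0 rose, of 12 myeloid genes 1, 1 and 0 fell, of 13 nerve genes 1, 0 and 0 fell, of 8 mesothelial genes 0, 1 and 0 rose, and of 5 erythroid genes none was called. A count of 0 or 1 is too few to read as a change of a list. Skeletal muscle list means were 5.24 to 5.47 over the NAC arrays and 5.44 to 6.63 over the untreated ones. Smooth muscle means were 7.62 to 7.96 and 7.65 to 8.35.

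With the skeletal and heart muscle list means as covariates, Pdgfrb, Nes and Des each lost a call in 1 genotype. These were Nes and Pdgfrb in HRas-KO (-0.79 and -0.46, limma adjusted p = 0.16 and 0.093) and Des in NRas-KO (-0.64, adjusted p = 0.12). The smooth muscle list was not in that fit. Every other called difference kept its call in that fit. Skeletal muscle means nearly separated the arms, so that fit does not give the part of muscle in the differences. The part of each cell type in the lower genes was not tested.

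**Figure D5:**
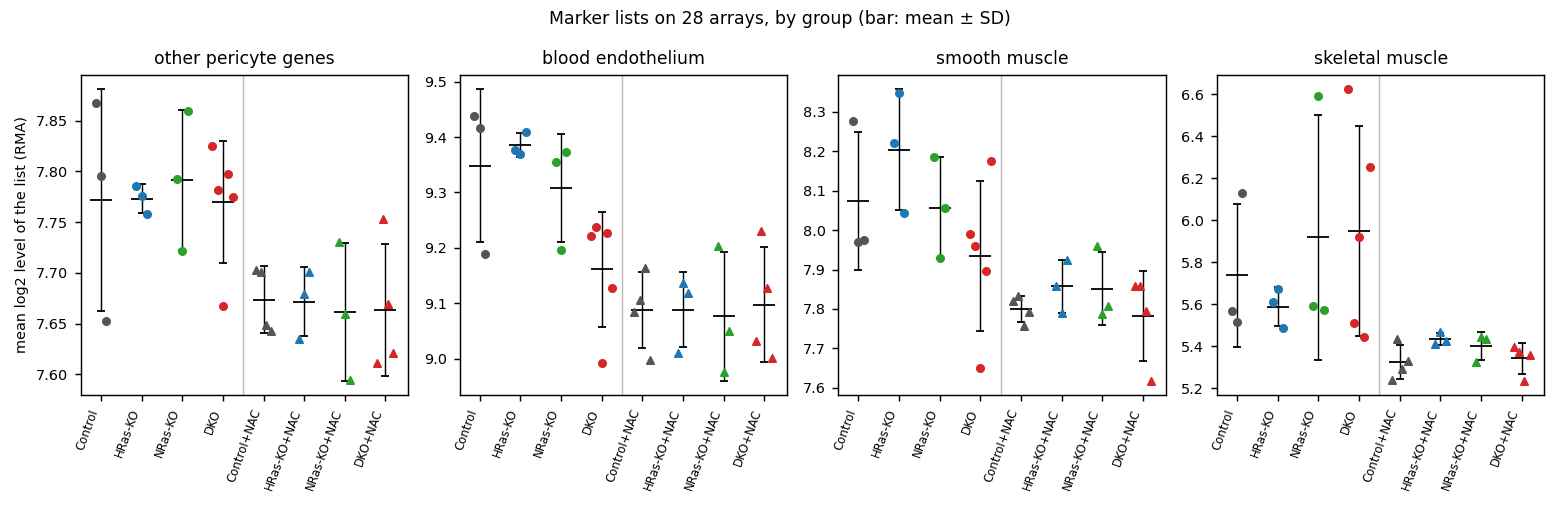
Each panel gives the mean log2 RMA level of a marker list (y axis) on 28 arrays in 8 groups (x axis), with circles for untreated arrays, triangles for NAC arrays and bars for the group mean ± SD. The skeletal muscle means of the NAC arrays (5.24 to 5.47) are tighter and mostly lower than those of the untreated arrays (5.44 to 6.63).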

How the data were processed

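The authors deposited log2 expression values, 1 per row (probe set) and array, for which RMA and affy are named per the submitters' processing notes. Their versions are not given in the sources used here. Of 41345 rows, 23521 had 1 gene symbol in the platform annotation. The brightest row stood for a gene, which gave 22180 genes, 1082 of them (Rgs5 among the 10) with several rows. Array medians lay between 5.25 and 5.41, and no pair of arrays (378 pairs) correlated above 0.9933, so no array was counted as a copy. The number of arrays limits the precision.

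A model with 8 group means was fitted to the 28 arrays with limma 3.58.1 (R 4.3.3; 20 residual and 5.95 prior degrees of freedom), with Benjamini-Hochberg adjustment over all genes and a threshold of 0.05, and was checked on simulated data. All adjusted p-values come from it. The 10 genes and 15 gene lists (244 of 256 genes measured) were chosen with earlier results of these data known. List genes named are at most the 4 called with the smallest p per comparison. Genes most like Nes, Pdgfb and Pdgfrb are the 5 of highest Pearson r. Replicate numbers did not pair arrays: deviations of same-numbered arrays correlated at 0.021 on average over 37 pairs (0.15 over 28 pairs of the same code start). The closing part gives the alternatives.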

Additional observations from a re-analysis of the deposited data

Results flagged for a closer look

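In 30 sets of 4 or 5 arrays, 1 array stood far from the rest: Cspg4 in Control+NAC replicate 4 read 5.90, while the other 3 read 6.41 to 6.45. About 1 in 20 such sets is picked out by chance. Nes moved in opposite directions with NAC in DKO (1.03) and in Control (-0.53), a gap of 1.56, and in DKO and HRas-KO (-0.93), a gap of 1.96. In both pairs every NAC array lay above every untreated array of the first genotype and below every one of the second. These 2 were found among 60 pairs looked at, and both hold the same DKO arrays. Such pairs were not counted over all genes. The difference was not tested, because the untreated DKO arrays chose the gene.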

How the results depend on the processing

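The alternatives covered the choice, filter and normalization of rows, the moderation, array weights, and the code start as a block or left out. Covariates were skeletal and heart muscle lists, and Xist and small RNA rows added after seeing the data. Each array was also left out in turn. Of 351 recalculated counts of called genes, 347 stayed within 1.5 times the reported count. Most of the 351 belong to comparisons with 0 reported, where every count stayed 0, so this share says little about the NAC calls. The 4 counts outside that range all concern NAC in HRas-KO (5 reported). They were 3 with muscle lists as covariates, 3 without HRas-KO replicate 1, 2 without HRas-KO+NAC replicate 1, and the count without code starts C117 and C118. That last setting, added after seeing the data, left 1 untreated HRas-KO array. Leaving out 1 array gave 2 to 4 for NAC in HRas-KO, 4 to 5 for NAC in NRas-KO, 4 to 6 for NAC in Control and 0 to 0 for every other comparison. Over all genes, NAC in HRas-KO called 2625 as reported, 4143 with array weights and 1414 with muscle lists. NAC in NRas-KO called 1425 as reported, 486 with only the groups compared and 721 without the code starts, and NAC in Control 3002 and 1470. Leaving out 1 array took these to 1374, 711 and 1319 at the lowest, and the comparisons with 0 reported reached at most 14 genes. Of 320 alternative values of the 15 called differences, 291 kept direction and call, 29 lost the call and 0 reversed. With the replicate block, which does not pair these animals, the counts were 5, 5 and 5 with NAC and 0 elsewhere. Untreated DKO minus Control lay between -1.84 and -1.27 for Nes, -1.42 and -0.95 for Pdgfb and 0.67 and 0.87 for Rgs5 with 1 array left out. The mean of both rows gave 0.39 for Rgs5, since the second row averaged 4.44 in DKO and 4.43 in Control. That row averaged 4.90 in DKO+NAC, opposite in direction to the bright row. Groups of 3 to 5 arrays limit these tests, and intervals cover the spread between animals of unknown litters.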
